A study of Mus musculus with 64 samples.

Results

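The 50 genes described here are type I interferon-stimulated antiviral genes, named by symbol in a list and read from the count tables of murine bone marrow-derived macrophages (BMMs). The rule for a member is its symbol. The tables list 55487 genes, of which 14537 held enough counts to be tested, and all 50 of the interferon-stimulated genes were among the tested ones. By role, the 50 comprise 7 pattern receptors and sensors, 6 genes of the 2-5A synthetase family, 4 Ifit genes, 12 genes of virus and RNA restriction, 3 genes of the Isg15 system, 7 genes for PARP and TRIM proteins with Dtx3l among them, and 11 other interferon-induced genes.

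The 64 RNA-seq libraries fall into 16 groups of 4. Bone marrow came from 4 female wild-type C57BL/6JRj mice (Ahr+/+) and 4 mice with a deletion of the aryl hydrocarbon receptor gene Ahr (Ahr-/-), aged 8 to 12 weeks, and was differentiated in medium enriched with macrophage colony-stimulating factor from L929 cells. The Ahr-/- mice were bought from another breeder and then crossed back in-house to the wild-type strain. BMMs of each genotype received the vehicle DMSO at 0.01%, benzo[a]pyrene (BaP, an aryl hydrocarbon of combustion smoke that binds AhR) at 1 µM, or indole-3-carbinol (I3C, a plant compound whose products bind AhR) at 10 µM. After 6 h, cells of all 3 exposures were activated with 10000000 bacteria per ml of hk S.E., Salmonella enterica Serovar Enteritidis killed by heat, for 3 h or 20 h, and 1 further group per genotype and time point had DMSO and no hk S.E. (unactivated). The deletion is of the whole body, so in Ahr-/- BMMs the receptor was lacking before and during differentiation. These groups ask how far hk S.E. switches the antiviral genes on, whether this depends on AhR, and whether an AhR ligand shifts it.

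Type I interferons, chiefly interferon-β in macrophages, are secreted within hours of contact with bacterial or viral products. They bind the receptor IFNAR on the same and on neighbouring cells, where the kinases JAK1 and TYK2 start a signal that assembles the complex ISGF3, of which STAT2 and IRF9 are parts. ISGF3 and several interferon regulatory factors bind the interferon-stimulated response element (ISRE) in promoters of antiviral genes, and some of these genes are also switched on directly by IRF3 without interferon. AhR becomes active when a ligand such as an aryl hydrocarbon is bound, moves to the nucleus and binds DNA elements such as AHRE I.

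Promoter sequence is shown because genes that rise together may share letters before their start. RefSeq promoters (GRCm38.p6, 250 bases before to 50 bases after each start) were given for 39 of the 50 genes. The letters GAAANNGAAA, the core of the ISRE, were searched on both strands, where overlapping matches were allowed and the other strand reads TTTCNNTTTC. A match was present in 17 of the 39 genes (43.6%), against 1079 of all 27025 genes with a promoter (3.99%). AHRE I (GCGTG, both strands) was present in 15 of 39 genes (38.5%) against 35.2% of all genes, and the STAT element GAS (TTCNNNGAA, which is its own reverse complement) in 8 of 39 (20.5%) against 9.55%. The 150 bases before the start follow for 6 genes, 5′ to 3′ on the strand of the gene with the ISRE matches in capitals. Isg15, Rsad2 and Ifit1 are strongly induced genes with a match, Cmpk2 is strongly induced and has none in this window, and Bst2 and Trim25 are among the genes that follow the set less closely. Matches start at -78, -72 and -66 in Isg15 (chr4:156200819-156200968, minus strand), at -120 in Rsad2 (chr12:26456453-26456602, minus strand), at -104 and -85 in Ifit1 (chr19:34640739-34640888, plus strand) and at -130 and -124 in Bst2 (chr8:71537473-71537622, minus strand), counted from the start at +1. The stretches of Cmpk2 (chr12:26469065-26469214) and Trim25 (chr11:88999253-88999402) lie on the plus strand, and their last bases are inside the first exon of the GENCODE gene model. A match is a run of letters and was not tested as a binding site.
Isg15: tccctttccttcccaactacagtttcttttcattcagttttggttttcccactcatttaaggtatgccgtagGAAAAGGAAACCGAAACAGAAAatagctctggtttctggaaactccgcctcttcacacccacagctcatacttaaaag
Rsad2: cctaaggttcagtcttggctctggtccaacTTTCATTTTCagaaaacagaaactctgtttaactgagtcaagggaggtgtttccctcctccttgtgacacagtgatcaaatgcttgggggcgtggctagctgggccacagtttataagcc
Ifit1: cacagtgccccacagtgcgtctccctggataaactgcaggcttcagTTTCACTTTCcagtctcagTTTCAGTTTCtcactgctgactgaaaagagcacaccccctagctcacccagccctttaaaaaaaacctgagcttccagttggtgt
Bst2: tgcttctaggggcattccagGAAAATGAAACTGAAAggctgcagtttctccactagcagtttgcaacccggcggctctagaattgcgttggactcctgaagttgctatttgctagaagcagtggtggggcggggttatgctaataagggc
Cmpk2: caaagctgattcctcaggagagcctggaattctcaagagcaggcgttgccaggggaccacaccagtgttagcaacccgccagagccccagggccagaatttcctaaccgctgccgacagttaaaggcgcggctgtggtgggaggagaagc
Trim25: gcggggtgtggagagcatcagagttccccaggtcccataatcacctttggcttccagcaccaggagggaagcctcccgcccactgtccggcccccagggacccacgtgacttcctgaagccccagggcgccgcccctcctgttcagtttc

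Libraries held 12152496 to 233047331 counts on genes (median 24499165), and the largest, from unactivated Ahr+/+ BMMs at 20 h, stood apart from the next one with 50644601. Expression is given as CPM, the counts of a gene per 1e6 counts of the TMM-scaled library. Macrophage markers (8 of 8 detected) summed to 18610 to 35730 CPM per library, against 0.0474 to 3.70 CPM for 8 dendritic cell markers, 0 to 1.27 for 10 lymphocyte markers, 10.2 to 216.9 for 8 neutrophil markers and 0 to 8.35 for 7 fibroblast and erythroid markers. Gene-level counts of Ahr do not check the deletion, because reads from every exon are summed, and Ahr was higher in hk S.E.-activated Ahr-/- than Ahr+/+ BMMs at 20 h (24.85 against 13.03 CPM). The AhR target Ahrr fell by 2.91 ± 0.21 (SE) on the log2 scale in the same comparison (edgeR, adjusted p = 2.28e-15). Library identifiers belong to several series, and at 20 h all 16 Ahr-/- libraries are of 1 series and all 12 Ahr+/+ libraries with hk S.E. are of another, so genotype and identifier series cannot be told apart there. Within Ahr-/- BMMs at 20 h, and without activation at 3 h, interferon-stimulated genes were lower in replicates 1 and 2 than in replicates 3 and 4. With hk S.E. at 3 h the set had this order with DMSO and with BaP, at levels closer together, but not with I3C. The values are given beside the results.

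The antiviral genes were low in unactivated BMMs, rose strongly within 3 h of hk S.E. and stayed raised at 20 h, when their level was lower in Ahr-/- than in Ahr+/+ BMMs. Together the 50 genes held 0.420% ± 0.051 (SD, n = 4) of all normalized counts in unactivated and 7.46% ± 0.75 in activated Ahr+/+ BMMs at 3 h, and 2.11% ± 0.12 in activated Ahr+/+ BMMs at 20 h. In activated Ahr-/- BMMs the share was 6.57% ± 0.88 at 3 h and 1.29% ± 0.28 at 20 h. The share at 20 h in unactivated cells was 0.304% ± 0.038 in Ahr+/+ and 0.310% ± 0.052 in Ahr-/- BMMs. Activated Ahr-/- libraries at 20 h ranged from 1.00% to 1.59%, below all activated Ahr+/+ libraries of that time with DMSO, which ranged from 1.94% to 2.22%. In bulk RNA, fewer responding cells and less RNA per responding cell cannot be told apart.

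**Figure D1:**
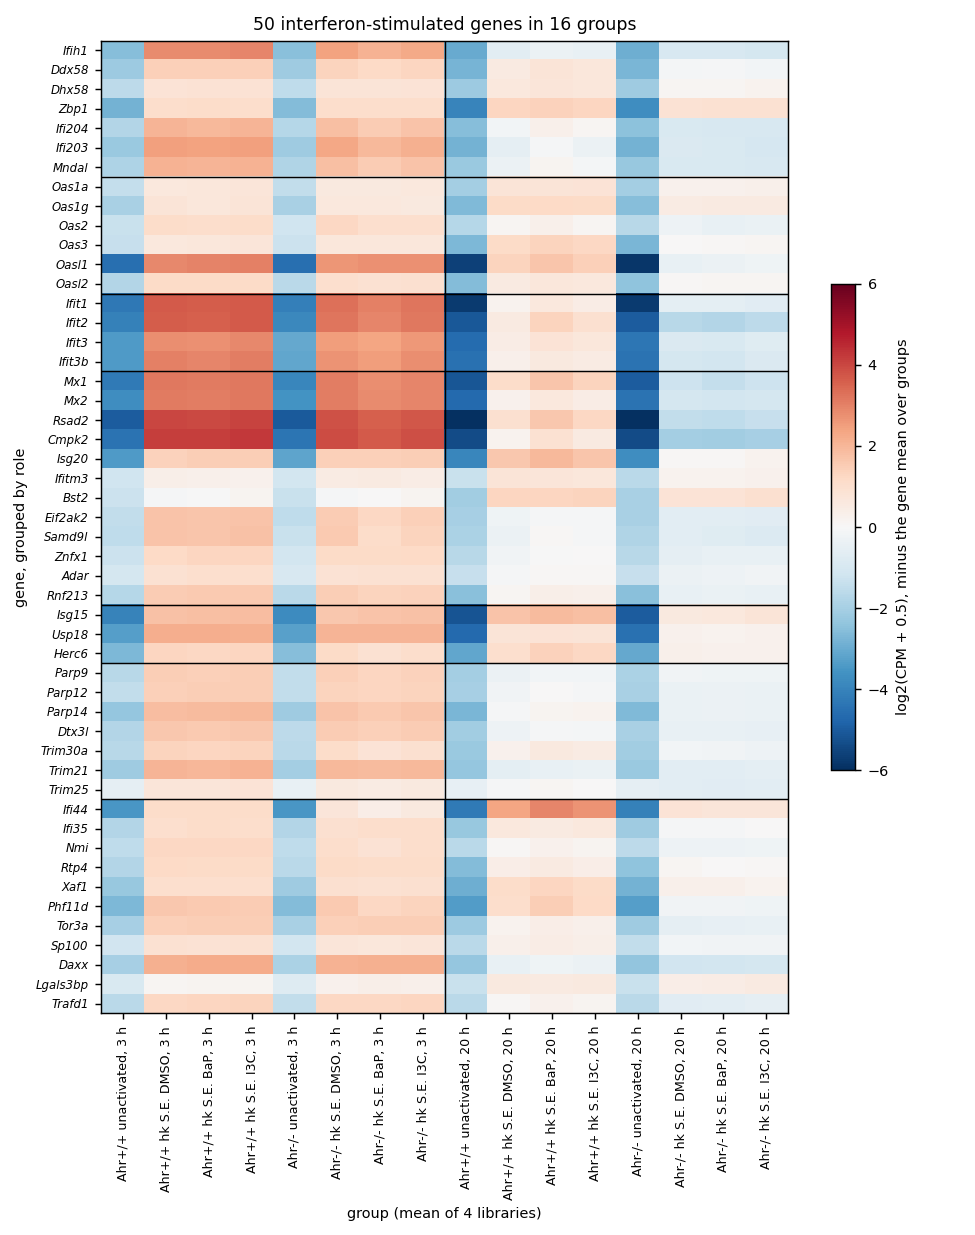
Mean log2(CPM + 0.5) of each of the 50 genes (rows, grouped by role) in the 16 groups (columns, mean of 4 libraries), with the gene's mean over groups subtracted and shown on a colour scale in log2 units. Unactivated groups are the lowest in nearly every row, and 10 of 50 rows, such as Bst2, are higher in activated Ahr+/+ BMMs with DMSO at 20 h than at 3 h. At 20 h most rows are lower in the activated Ahr-/- than in the activated Ahr+/+ columns.

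A level for the whole set was taken as the median over the 50 genes of log2 CPM minus each gene's mean over groups. In Ahr+/+ BMMs it moved from -1.94 ± 0.26 (SD, n = 4) without activation to 1.47 ± 0.094 with hk S.E. at 3 h, and from -2.53 ± 0.24 to 0.36 ± 0.10 at 20 h. Ahr-/- BMMs moved from -1.88 ± 0.48 to 1.39 ± 0.075 at 3 h and from -2.49 ± 0.45 to -0.38 ± 0.34 at 20 h. The spread was wider in Ahr-/- than in Ahr+/+ BMMs without activation and at 20 h, but not with hk S.E. at 3 h. Without activation at 20 h the 4 Ahr-/- libraries lay at -2.95, -2.80, -2.13 and -2.09 in the order of their replicate numbers, and with hk S.E. and DMSO at 20 h at -0.61, -0.74, -0.06 and -0.13. The same order of replicates 1 and 2 below 3 and 4 was seen with BaP (-0.67, -0.53, -0.10 and -0.10) and with I3C (-0.66, -0.66, -0.05 and -0.16). All of these libraries of 20 h carry identifiers of 1 series. Unactivated Ahr-/- libraries of 3 h had the same order (-2.335, -2.24, -1.448 and -1.487). There replicate 1 is of that series and replicates 2, 3 and 4 are of another. With hk S.E. at 3 h the levels lay closer together. They were 1.395, 1.283, 1.463 and 1.4 with DMSO and 1.218, 1.156, 1.339 and 1.364 with BaP. With I3C (1.392, 1.246, 1.359 and 1.4) replicate 1 lay above replicate 3. The part of animal, culture or handling in this difference was not tested.

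**Figure D2:**
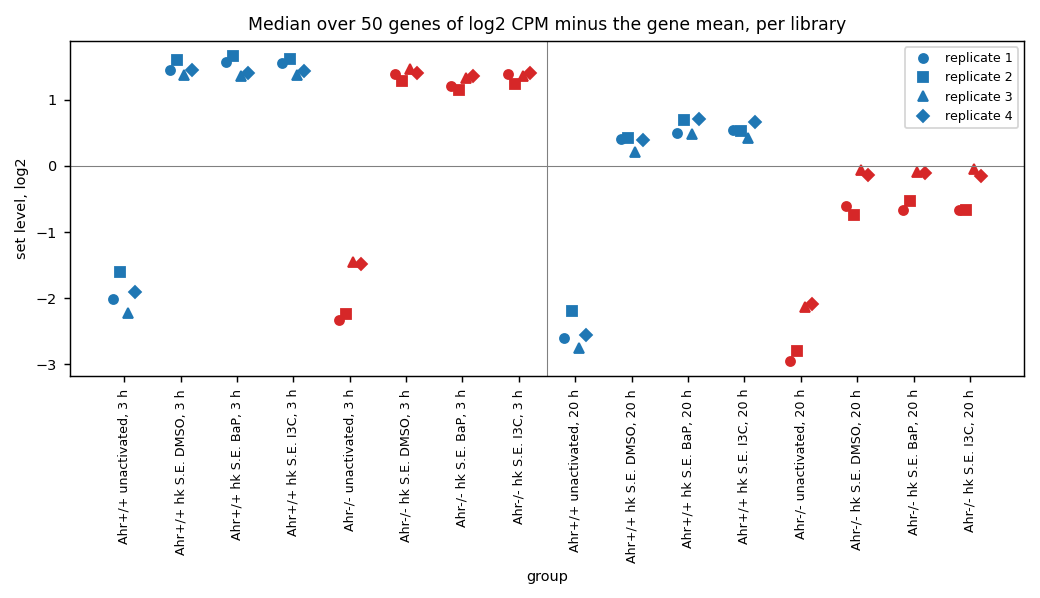
Set level of each of the 64 libraries (y axis, log2, median over the 50 genes of log2 CPM minus the gene's mean) in the 16 groups, with a marker shape for each replicate number and Ahr+/+ in blue, Ahr-/- in red. In Ahr-/- BMMs at 20 h, replicates 1 and 2 lie below replicates 3 and 4 in every group, and they also do so without activation at 3 h. With hk S.E. at 3 h the order is the same with DMSO and BaP, at levels closer together, but not with I3C.

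At 3 h, hk S.E. raised all 50 genes in Ahr+/+ BMMs (edgeR, adjusted p below 0.01 over all tested genes), where 24.2% of all tested genes were called higher. The median log2 fold change was 3.40, a 10.6-fold rise, against -0.105 over all tested genes. The Ifit genes, whose products bind foreign or unmodified RNA, formed the most strongly induced group with a median of 7.10. Next came the Isg15 system (5.50), the pattern receptors and sensors (3.94), the virus and RNA restriction genes (3.20), the PARP and TRIM proteins (3.14), the other induced genes (2.92) and the 2-5A synthetases (2.60). In 13 of the 50 genes the log2 fold change was above 5.

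Rsad2, which encodes viperin, an enzyme that makes a chain-terminating nucleotide, had the largest rise. Its 4 libraries held 30.1, 44.9, 20.3 and 34.7 CPM without activation and 16500, 18410, 13750 and 15990 CPM with hk S.E., a log2 fold change of 8.95 ± 0.56 (SE, adjusted p = 1.41e-20). Cmpk2, a mitochondrial nucleotide kinase gene that lies head to head with Rsad2 on chromosome 12 (Cmpk2 at chr12:26469204-26479837, Rsad2 at chr12:26442746-26456452), rose from 19.7, 26.8, 14.1 and 23.1 to 8241, 9312, 6823 and 7877 CPM. No unactivated library came near the activated ones for either gene. Per kilobase of exon, Rsad2 was also the most abundant of the 50 in activated cells, at 3728 CPM per kb, followed by Ifit1 at 2135 and Cmpk2 at 1937.

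Ifit1, whose protein binds viral RNA that lacks a methylated cap, rose from 20.5, 34.8, 12.8 and 26.0 CPM to 5324, 6563, 4998 and 5802 CPM (log2 fold change 7.91 ± 0.48). Ifit2 rose by 7.65 ± 0.59, and Ifit3 and Ifit3b by 6.17 ± 0.37 and 6.56 ± 0.44. The last pair are near-identical copies, so reads could be split or lost between them and their separate values are uncertain. Among the 2-5A synthetases, which make the activator of RNase L, Oasl1 stood out from the rest: it rose from 5.99, 8.83, 4.78 and 6.07 to 1144, 1383, 1005 and 1123 CPM, by 7.48 ± 0.36. Oasl1 is not itself an active synthetase. The other 5 genes of that family rose by 1.99 (Oas3) to 2.88 (Oasl2), with Oas1a and Oas1g uncertain as close copies of each other.

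Mx1 encodes a GTPase that blocks influenza virus in mice and is disrupted in common C57BL/6 strains, although RNA is still made. Mx1 RNA rose from 11.2, 20.5, 8.88 and 13.6 to 2141, 2403, 2075 and 2566 CPM (7.39 ± 0.45), and its neighbour Mx2, annotated as a polymorphic pseudogene, by 6.95 ± 0.26. Isg20, an exonuclease, rose by 5.04 ± 0.23. The smallest rises of the restriction group were those of 3 genes with these unactivated levels: Adar, the RNA editing enzyme, at 97.7, 111, 103 and 102 CPM, Ifitm3, which blocks virus entry at endosomes, at 274, 329, 299 and 300 CPM, and Bst2, the tetherin that holds budding virus, at 137, 155, 158 and 173 CPM. They rose by 1.96 ± 0.08, 1.55 ± 0.12 and 1.24 ± 0.13. Activated libraries of Adar held 417, 422, 392 and 377 CPM. Eif2ak2, Znfx1 and Rnf213 rose by 3.18 ± 0.18, 2.45 ± 0.13 and 3.22 ± 0.21.

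Isg15, the ubiquitin-like modifier, rose from 16.1, 25.2, 15.3 and 19.0 to 1029, 1106, 949 and 974 CPM (5.74 ± 0.25). Usp18, which removes Isg15 from proteins and dampens IFNAR signalling, rose from 16.2, 21.5, 15.1 and 20.4 to 845, 909, 757 and 800 CPM (5.50 ± 0.27), and the Isg15 ligase Herc6 rose by 4.00 ± 0.30. Among the sensors, Ifih1 (MDA5), a receptor of long double-stranded RNA, rose by 5.40 ± 0.27, from 41.2, 50.4, 32.5 and 42.8 to 1742, 1965, 1590 and 1761 CPM. Ddx58 (RIG-I), the receptor of RNA with a free triphosphate end, rose by 3.59 ± 0.19, from 66.3, 83.9, 50.7 and 69.8 to 828, 900, 768 and 766 CPM. Zbp1, a sensor of Z-form nucleic acids, rose by 3.94 ± 0.23, from 19.6, 27.4, 16.6 and 22.5 to 332, 400, 258 and 335 CPM, and Dhx58 (LGP2) by 2.42 ± 0.12. Ifi203, Ifi204 and Mndal, DNA-binding proteins of the p200 family in a cluster of related and partly overlapping genes, rose by 4.63 ± 0.39, 3.79 ± 0.29 and 3.94 ± 0.26 and are uncertain as separate values.

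Parp14, which attaches ADP-ribose, led its group by 4.21 ± 0.18, from 179, 208, 158 and 191 to 3468, 3533, 3348 and 3284 CPM, and Trim21, a cytosolic antibody receptor, rose by 4.19 ± 0.15. Trim30a rose by 2.95 ± 0.28, from 89.5, 126, 62.1 and 89.5 to 723, 815, 605 and 697 CPM. Trim25, the ubiquitin ligase that acts on RIG-I, rose least in that group, by 1.24 ± 0.08, and Lgals3bp, a secreted galectin-binding glycoprotein, rose least of all 50 genes, by 1.05 ± 0.10. Both of these genes had high unactivated levels, 343, 367, 310 and 352 CPM for Trim25 and 558, 665, 582 and 590 CPM for Lgals3bp.

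**Figure D3:**
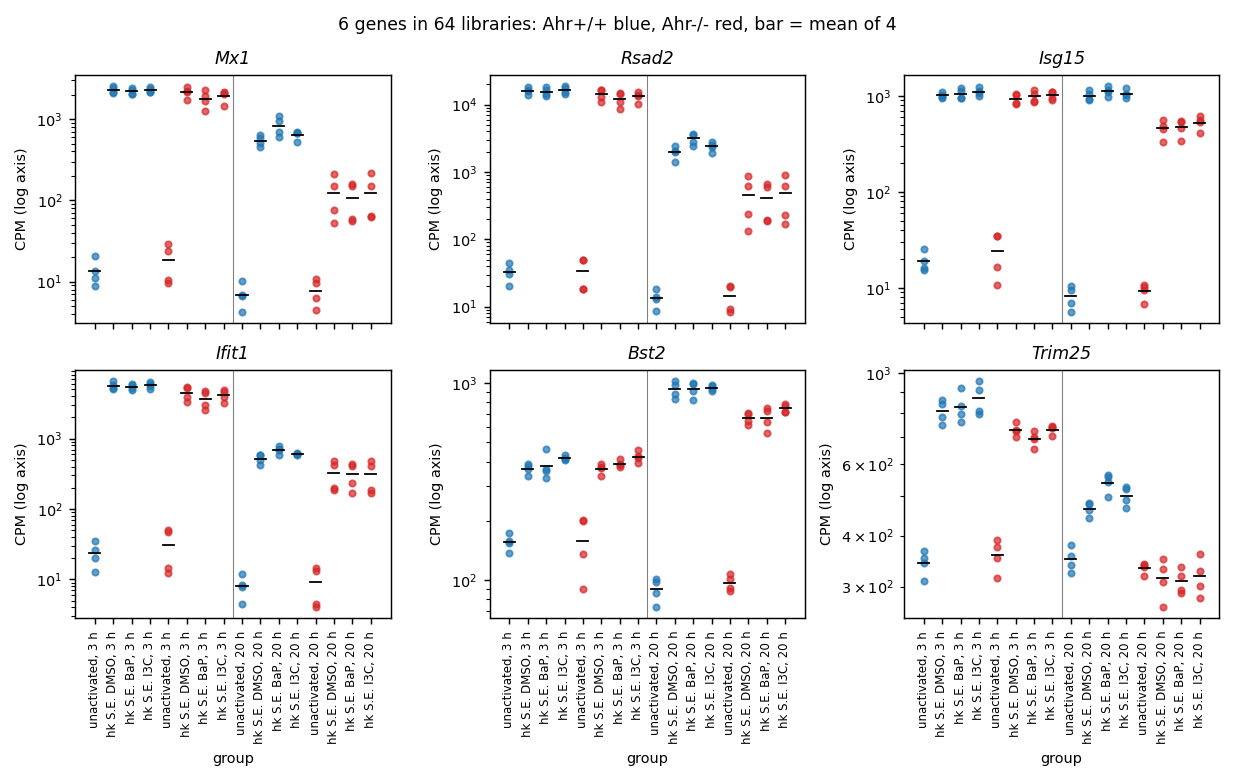
CPM (log axis) of Mx1, Rsad2, Isg15, Ifit1, Bst2 and Trim25 in each of 64 libraries, by group, with Ahr+/+ in blue, Ahr-/- in red and a bar at the mean of 4. Mx1, Rsad2 and Ifit1 fall between 3 h and 20 h of hk S.E., Isg15 stays level in Ahr+/+ BMMs, Bst2 is higher at 20 h, and Trim25 of activated Ahr-/- BMMs at 20 h overlaps the unactivated range.

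At 20 h all 50 genes were still higher with hk S.E. than without it in Ahr+/+ BMMs (29.9% of all tested genes called higher), with a median log2 fold change of 2.84, a 7.17-fold rise. The values ran from 0.41 ± 0.08 for Trim25 to 7.54 ± 0.66 for Ifi44, a gene of unclear function that is a common marker of interferon exposure. Ifi44 was the least abundant of the 50 genes per kilobase, at 0.0962 CPM per kb unactivated and 16.9 CPM per kb activated at 20 h. Rsad2 (7.20 ± 0.52), Oasl1 (7.12 ± 0.36), Isg15 (6.94 ± 0.26) and Mx1 (6.29 ± 0.43) followed it in the size of the rise. For 17 genes the induction at 20 h was larger than at 3 h in Ahr+/+ BMMs, and for 10 of the genes in Ahr-/- BMMs. The 17 include Isg15 (6.94 ± 0.26), Isg20 (5.86 ± 0.23), Zbp1 (5.27 ± 0.25), Xaf1 (4.06 ± 0.19) and Bst2 (3.37 ± 0.14). Induction is against unactivated cells of the same time, which were lower at 20 h than at 3 h (median log2 fold change -0.62). Activated Ahr+/+ BMMs with DMSO had a higher mean CPM at 20 h than at 3 h in 10 genes. Mean Isg15 was 1015 and 1007 CPM activated at 3 h and 20 h, and 18.9 and 8.13 CPM unactivated.

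Between 3 h and 20 h of hk S.E., 36 of the 50 genes fell in Ahr+/+ BMMs (26.4% of tested genes were called lower) and 3 rose (33% were called higher), with a median log2 fold change of -1.22. Cmpk2 fell most, by 3.96 ± 0.39, to 604, 550, 365 and 549 CPM. Ifih1 fell by 3.51 ± 0.24, Ifit1 by 3.45 ± 0.39, Ifit2 by 3.12 ± 0.47 and Rsad2 by 3.03 ± 0.43. The genes that rose were Bst2, Lgals3bp and Ifitm3. Bst2 went from 366, 387, 340 and 378 CPM at 3 h to 980, 836, 879 and 1024 CPM at 20 h (1.34 ± 0.13, adjusted p = 1.27e-13), and no library of one time point overlapped the other. Lgals3bp and Ifitm3 rose by 0.46 ± 0.10 and 0.41 ± 0.12.

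In Ahr-/- BMMs, 41 genes fell between 3 h and 20 h of hk S.E. (24.3% of tested genes called lower) and 1, Bst2, rose (31.7% called higher), with a median of -1.67. Cmpk2 fell by 5.75 ± 0.43, Rsad2 by 4.95 ± 0.47, Ifit2 by 4.59 ± 0.51, Mx1 by 4.13 ± 0.39 and Mx2 by 4.08 ± 0.22, while Bst2 rose by 0.86 ± 0.13. Without activation, 20 genes were lower at 20 h than at 3 h in Ahr+/+ BMMs (2.77% of tested genes) and 23 in Ahr-/- BMMs (3.46%), with Ifit1 down by 1.53 ± 0.38 and 1.72 ± 0.38. After Ifit1 the largest falls in Ahr+/+ BMMs were those of Usp18 (-1.37), Oas3 (-1.30), Oasl1 (-1.24) and Ifit3 (-1.23), and in Ahr-/- BMMs those of Oasl1 (-1.59), Ifit3 (-1.51), Oas3 (-1.47) and Isg15 (-1.37). With the replicate number as a block, 39 genes were lower in Ahr+/+ (6.2% of tested genes) and 42 in Ahr-/- BMMs (7.57%). In Ahr+/+ BMMs the count was 9 without unactivated replicate 1 or 3 of 20 h, 13 without replicate 4 of 20 h and 8 without replicate 2 of 3 h. For Ahr-/- BMMs it was 15 without unactivated replicate 1 of 20 h and 12 without replicate 3 or 4 of 3 h, 3 with the identifier series as a covariate (0.991% of tested genes) and 0 when only these groups were fitted (0.425%).

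Activation of the set at 3 h was close in both genotypes. In Ahr-/- BMMs hk S.E. raised all 50 genes at 3 h (25.5% of tested genes called higher), with a median log2 fold change of 3.21 and Rsad2 (8.74 ± 0.56), Cmpk2 (8.22 ± 0.48), Ifit1 (7.17 ± 0.46), Oasl1 (7.00 ± 0.35) and Mx1 (6.88 ± 0.44) in the lead. Across the 50 genes, which are not independent replicates, the changes of both genotypes correlated with r = 0.9968. Every gene had a smaller fold change in Ahr-/- BMMs, but the difference passed the test of activation by genotype in none of them at 3 h (0.00688% of tested genes called lower by edgeR, 1 of the 50 at an unadjusted p below 0.05, 0 by DESeq2 and 0 by limma). Activated cells differed directly between genotypes by -0.43 ± 0.22 (Ifih1) to 0.13 ± 0.12 (Ifitm3) with DMSO, and no gene was called lower (1.61% of tested genes; 0 of the 50 at an unadjusted p below 0.05, 0 by DESeq2 and 0 by limma). For Mx1 the 95% interval of this difference ran from -0.78 to 0.58, with Ahr-/- libraries at 2241, 1728, 2447 and 2168 CPM against 2141, 2403, 2075 and 2566 in Ahr+/+ BMMs.

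With BaP at 3 h no gene was called lower in Ahr-/- than in Ahr+/+ BMMs by edgeR (2.18% of tested genes; 8 of the 50 at an unadjusted p below 0.05), while DESeq2 called 1, Trim25, and limma 0. With I3C at 3 h no gene was called either (1.71%; 2 at an unadjusted p below 0.05, 0 by DESeq2 and 0 by limma). The lowest differences were those of Ifih1, -0.73 ± 0.22 with BaP and -0.61 ± 0.22 with I3C. Without activation no gene was called lower in Ahr-/- BMMs at 3 h (0.97%; 0 at an unadjusted p below 0.05) or at 20 h (0.482%; 1 at an unadjusted p below 0.05), and DESeq2 and limma called 0 at both times. The medians over the 50 genes were 0.17 at 3 h and 0.12 at 20 h.

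**Figure D4:**
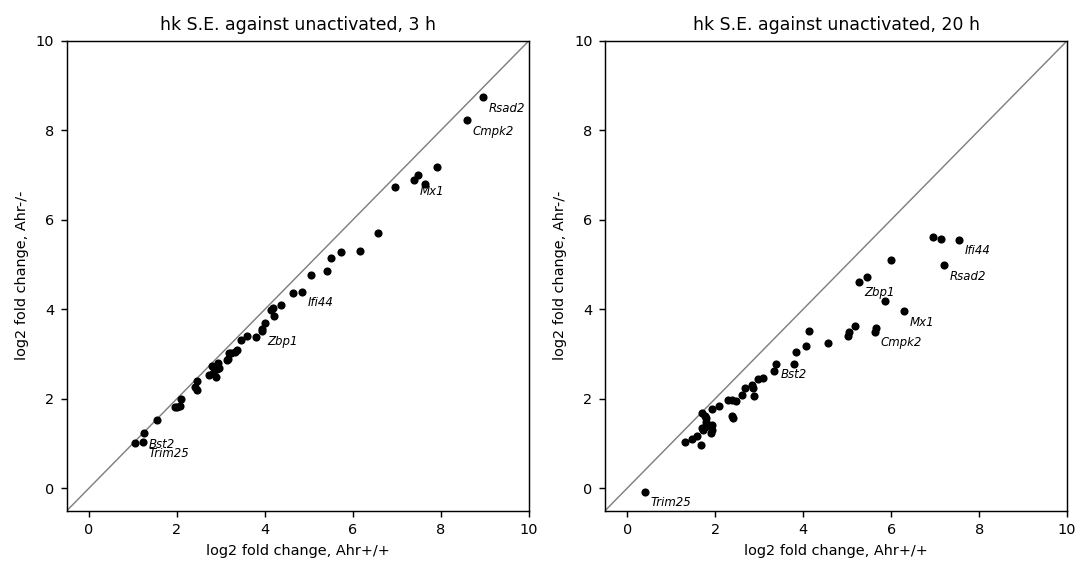
Log2 fold change of hk S.E. against unactivated in Ahr+/+ (x axis) and in Ahr-/- BMMs (y axis) for each of the 50 genes at 3 h and at 20 h, with the diagonal of equal change. At 3 h the points lie just below the diagonal, and at 20 h Mx1, Rsad2 and Cmpk2 lie far below it and Trim25 lies near 0 on the y axis.

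At 20 h of hk S.E. the genotypes separated. With DMSO, 25 of the 50 genes were lower in Ahr-/- than in Ahr+/+ BMMs (7.39% of tested genes were called lower), 0 were higher, and the median log2 fold change was -0.54 against 0.01 over all tested genes. With BaP 36 genes were lower (11.8%, median -0.71), and with I3C 30 genes (8.17%, median -0.64). Of 36 genes called with any exposure, 23 were called with all 3 of them. The activation itself reached 49 of 50 genes in Ahr-/- BMMs (28.3% of tested genes called higher) with a median log2 fold change of 2.24, and a log2 fold change above 5 was seen in 4 genes, Isg15 (5.62 ± 0.25), Oasl1 (5.56 ± 0.34), Ifi44 (5.56 ± 0.62) and Ifit1 (5.10 ± 0.42), against 14 in Ahr+/+ BMMs. Across the 50 genes the activation at 20 h correlated between the genotypes with r = 0.9738.

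Of all tested genes, 7.39% were called lower with DMSO, 11.8% with BaP and 8.17% with I3C. By role, the genes called lower with DMSO, BaP and I3C were 8, 11 and 10 of 12 restriction genes, 7, 9 and 8 of 11 other induced genes, and 3 of 4 Ifit genes with each. They were 3, 5 and 2 of 6 synthetase genes, 2, 4 and 4 of 7 sensors, 1, 2 and 1 of 3 genes of the Isg15 system and 1, 2 and 2 of 7 PARP and TRIM genes.

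Mx1 had the largest difference with each exposure, -2.15 with DMSO, -2.97 with BaP and -2.35 with I3C. Rsad2 (-2.94 with BaP and -2.32 with I3C), Cmpk2 (-2.86 and -2.34) and Ifit2 (-2.83 and -2.21) came next, followed by Oasl1 with BaP (-1.98) and Ifi44 with I3C (-1.64). Activated Ahr+/+ libraries at 20 h held 577, 637, 450 and 514 CPM and Ahr-/- libraries 75.5, 52.9, 211 and 151 CPM, so the groups did not overlap, and the mean was 4.44-fold lower in Ahr-/- BMMs (log2 fold change -2.15 ± 0.36, adjusted p = 8e-06). Ahr-/- BMMs retained 19.8% of the Ahr+/+ fold induction of Mx1. Rsad2 held 2411, 2077, 1427 and 1980 CPM in Ahr+/+ and 235, 132, 861 and 620 CPM in Ahr-/- BMMs (-2.10 ± 0.41), and Cmpk2 604, 550, 365 and 549 against 73.3, 51.0, 220 and 161 CPM (-2.03 ± 0.36). In both genes, as in Mx1, Ahr-/- replicates 1 and 2 were far below replicates 3 and 4, and even the latter stayed under every Ahr+/+ library.

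Ifit2 was the most reduced Ifit gene, at 863, 834, 804 and 819 CPM in Ahr+/+ and 110, 68.4, 418 and 315 CPM in Ahr-/- BMMs (-1.86 ± 0.45, adjusted p = 0.00174). Ifit3 and Ifit3b were lower by 1.25 ± 0.30 and 1.23 ± 0.35 on the log2 scale. Ifit1 was the exception of its family, with 584, 577, 421 and 500 CPM against 201, 185, 485 and 420 CPM, where the groups overlap and the difference of -0.69 ± 0.35 did not pass the test (adjusted p = 0.171). Oasl1 was lower by 1.69 ± 0.27, at 400, 370, 364 and 409 against 102, 76.7, 159 and 138 CPM. Of the other synthetases, Oas1a and Oas1g were called lower (-0.51 ± 0.13 and -0.66 ± 0.19), and Oas2, Oas3 and Oasl2 were not.

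Isg20 had the smallest adjusted p of the set with DMSO (1.97e-08): its Ahr+/+ libraries held 126, 114, 93.1 and 118 CPM and its Ahr-/- libraries 31.6, 25.2, 55.9 and 47.8 CPM, a difference of -1.49 ± 0.18. Isg15 was lower by 1.14 ± 0.20, at 1047, 923, 907 and 1153 against 454, 334, 560 and 486 CPM. The other 2 genes of its system did not pass the test, Usp18 (302, 328, 293 and 322 against 186, 167, 279 and 256 CPM, -0.49 ± 0.22, adjusted p = 0.116) and Herc6 (-0.56 ± 0.26, adjusted p = 0.126). Mx2 was lower by 1.276 ± 0.198, Ifitm3 by 0.54 ± 0.12, Bst2 by 0.48 ± 0.13 and Adar by 0.30 ± 0.07. Adar had a small difference with no overlap, at 207, 207, 224 and 198 against 167, 160, 180 and 173 CPM. Further restriction genes did not pass with DMSO: Eif2ak2, the kinase PKR (-0.32 ± 0.16), Znfx1, a helicase (-0.35 ± 0.12), Rnf213 (-0.51 ± 0.20) and Samd9l. Of these Eif2ak2, Znfx1 and Rnf213 were called lower with BaP and with I3C. Bst2 held 980, 836, 879 and 1024 CPM in Ahr+/+ and 701, 642, 708 and 612 CPM in Ahr-/- BMMs, where replicates 1 and 2 were not below replicates 3 and 4.

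The sensors and the PARP and TRIM proteins held the smallest shares of genes called lower with DMSO, 2 of 7 and 1 of 7. The share over all tested genes was 7.39%. Among the 7 sensors, Ddx58 (439, 485, 408 and 445 against 243, 228, 341 and 328 CPM, -0.64 ± 0.17) and Dhx58 (-0.53 ± 0.12) were lower, whereas Zbp1 (390, 397, 354 and 395 against 284, 248.7, 303 and 315 CPM) differed by -0.42 ± 0.20 with an adjusted p of 0.145. All 4 Ahr-/- libraries of Zbp1 lay below the Ahr+/+ libraries. Of 7 PARP and TRIM genes Trim25 alone was called lower with DMSO (median of the group -0.15). Parp9, a partner of Dtx3l in ADP-ribosylation whose gene lies head to head with Dtx3l, had 161, 176, 151 and 169 CPM in Ahr+/+ and 168, 160, 190 and 202 CPM in Ahr-/- BMMs, and kept 98.1% of its Ahr+/+ fold induction. Parp14 (920, 948, 861 and 867 against 611, 547, 879 and 847 CPM) and Trim30a (366, 377, 296 and 317 against 185, 174, 370 and 351 CPM) overlapped between genotypes, and replicates 3 and 4 of Ahr-/- BMMs lay within or next to the Ahr+/+ range.

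Trim25 was the only 1 of the 50 genes not called higher with hk S.E. in Ahr-/- BMMs at 20 h. Its libraries held 339, 319, 335 and 340 CPM unactivated and 309, 268, 350 and 332 CPM activated (-0.08 ± 0.08, adjusted p = 0.346), against 356, 380, 324 and 340 and 479, 481, 441 and 462 CPM in Ahr+/+ BMMs. The activated genotypes differed by -0.57 ± 0.08 with no overlap. Among the 11 other induced genes 7 were lower with DMSO, including Phf11d (-1.14 ± 0.28), Xaf1, an apoptosis-related gene (-0.78 ± 0.17), Tor3a (-0.73 ± 0.12), Daxx, a PML body protein (-0.72 ± 0.10), Trafd1 (-0.71 ± 0.11), Ifi35 (-0.70 ± 0.11) and Sp100, another PML body protein (-0.47 ± 0.11). Nmi at -0.38 ± 0.13 was called lower with BaP alone. Ifi44 at -1.24 ± 0.46 did not pass with DMSO (adjusted p = 0.0484) and was called with BaP and with I3C. The 14 genes called with none of the 3 exposures were Dtx3l, Ifi203, Ifih1, Ifit1, Lgals3bp, Oasl2, Parp12, Parp9, Rtp4, Samd9l, Trim21, Trim30a, Usp18 and Zbp1.

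The comparison of activation between genotypes at 20 h, which takes out differences present without hk S.E., called 12 genes lower (2.33% of tested genes), and all of them were among the 25. They were Mx1 (-2.33 ± 0.51), Rsad2 (-2.21 ± 0.58), Cmpk2 (-2.14 ± 0.51), Isg20 (-1.67 ± 0.30), Mx2 (-1.55 ± 0.31), Isg15, Ifi35, Tor3a, Trafd1, Daxx, Sp100 and Trim25. All 50 estimates were negative. When replicate numbers entered as a block nested in genotype the count was 26 (5.21% of tested genes). The comparison of the genotype difference between 20 h and 3 h with hk S.E., added after the data were seen, called 10 genes lower (3.52% of tested genes) and 21 with the block (7.27%), led by Mx1 (-2.05 ± 0.49), Isg20 (-1.49 ± 0.26) and Oasl1 (-1.44 ± 0.38), and the count of 10 became 1 with the identifier series as a covariate (0.612%) and 6 without replicate 4 of activated Ahr+/+ BMMs at 3 h.

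With the identifier series as a covariate, 7 of the 50 genes were lower in Ahr-/- BMMs at 20 h with DMSO (2.03% of tested genes), namely Trim25, Mx1, Daxx, Cmpk2, Mx2, Isg20 and Trafd1, and 18 with BaP (6.25%) and 9 with I3C (3.58%). Outside the Ahr-/- groups of 20 h, the only libraries of their series were unactivated. The covariate thus rests on unactivated cells. Neither these counts nor that of the comparison between times can part series from genotype in activated cells. When the 2 groups were fitted alone, 13 were lower with DMSO (2.66%). Without replicate 2 of the Ahr-/- libraries the DMSO count was 16, and with I3C it was 19 without Ahr-/- replicate 1, without Ahr-/- replicate 2 or without Ahr+/+ replicate 4. Macrophage markers summed to 20150 to 32150 CPM in these Ahr-/- libraries and to 18830 to 22840 CPM in the Ahr+/+ libraries. Of the 8, 0 were called higher in Ahr-/- BMMs (5.06% of tested genes) and 2, Cd68 (-0.69) and Fcgr1 (-1.25), lower (7.39%). Dendritic cell markers summed to 0.507 to 0.883 CPM against 1.08 to 2.07 CPM, with Klk1 and Cd209a at 0 in both groups and Siglech at 0 in the Ahr+/+ group. Of the 3 dendritic cell markers that could be tested, 2 were called lower in Ahr-/- BMMs, where 7.39% of tested genes were. Flt3 (-2.92 ± 0.58) held 0.100 against 0.696 CPM and Zbtb46 (-2.56 ± 0.52) 0.110 against 0.670 CPM, all low levels. Ccr9 went the other way, by 0.92 ± 0.42 (0.495 against 0.272 CPM), and was not called. Of 5 tested neutrophil markers and 3 tested fibroblast and erythroid markers, 0 were called in either direction. Col1a1 held 0.790 CPM in Ahr-/- against 0.239 CPM in Ahr+/+ BMMs and Col1a2 0.840 against 0.257 CPM, while Dcn went the other way (0.855 against 1.73 CPM). The part of these markers in the difference was not tested.

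**Figure D5:**
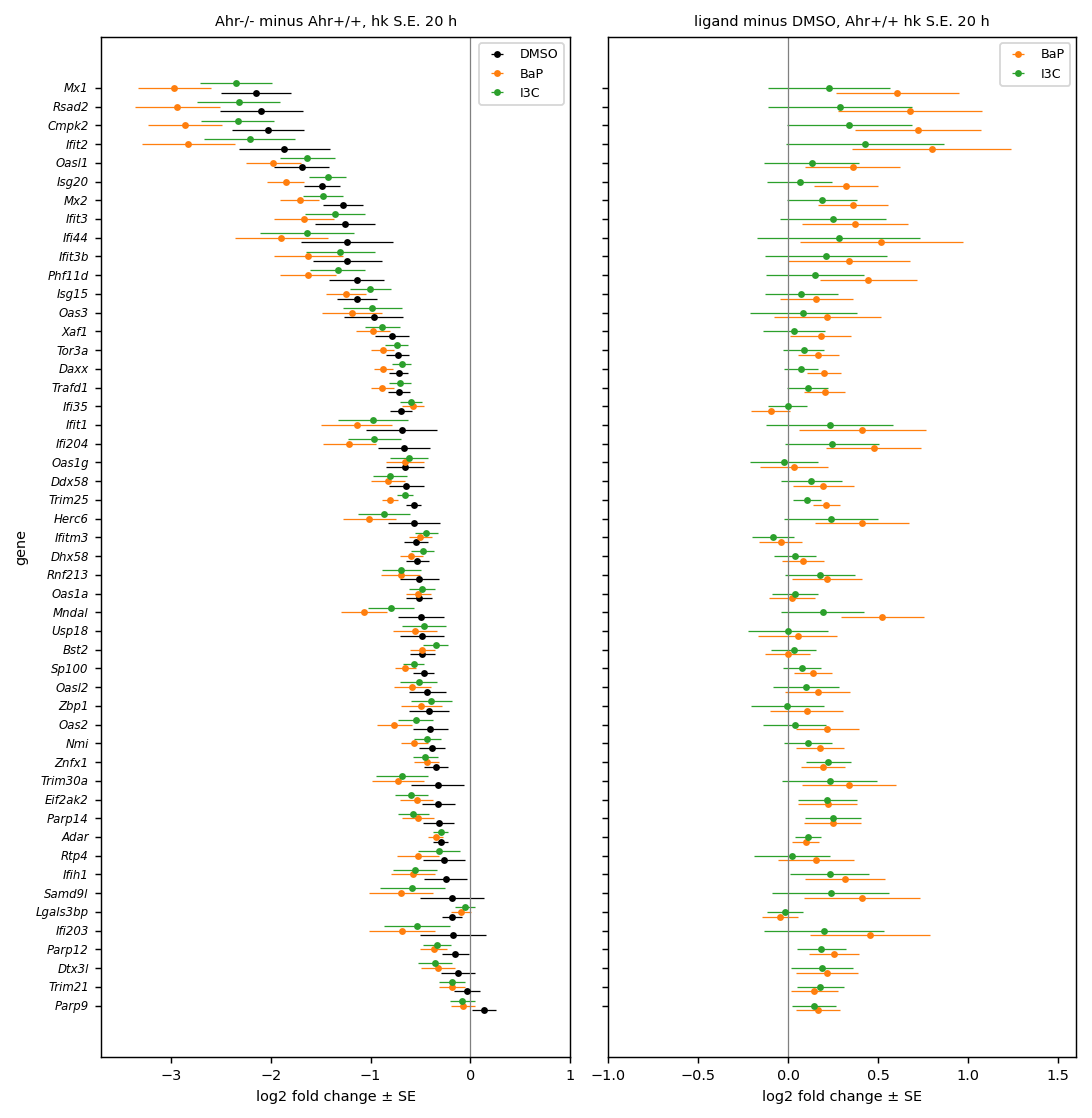
Log2 fold change ± SE of each of the 50 genes at 20 h of hk S.E., on the left for Ahr-/- minus Ahr+/+ BMMs with DMSO, BaP or I3C, and on the right for BaP or I3C minus DMSO in Ahr+/+ BMMs. Genes are ordered by the DMSO difference, from Mx1 at -2.15 to Parp9 at 0.13, and the ligand shifts on the right stay between -0.10 and 0.80.

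The AhR ligands gave smaller shifts of the set than activation at either time, and than genotype in activated cells at 20 h. No gene was called for BaP or I3C against DMSO in either genotype at either time. The shares of all tested genes called were 0.0482% and 0.131% for BaP and I3C in Ahr+/+ BMMs at 3 h, 0.0275% and 0.0206% in Ahr-/- BMMs at 3 h. The later time point gave 0.234% for BaP and 0.509% for I3C in Ahr+/+ BMMs, against 0.0138% for BaP and 0.206% for I3C in Ahr-/- BMMs. By edgeR, 4 of the 50 had an unadjusted p below 0.05 for BaP in Ahr+/+ BMMs at 20 h and 0 in the other 7 comparisons, and DESeq2 and limma called 0 in all 8. At 3 h the medians lay at -0.01 (BaP) and 0.03 (I3C) in Ahr+/+ and at -0.11 and -0.03 in Ahr-/- BMMs.

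At 20 h in Ahr+/+ BMMs the median shift with BaP was 0.22, a 1.16-fold rise, and 46 of 50 genes were positive, against 49.9% of all tested genes. All 4 BaP libraries lay above all 4 DMSO libraries in 16 of the 50 genes, where 4.03% of tested genes did so. These were Ifi203, Mndal, Oasl1, Oasl2, Ifit1, Ifit2, Mx2, Rsad2, Cmpk2, Herc6, Parp12, Trim30a, Trim25, Ifi44, Phf11d and Trafd1. Ifit2 had the largest shift, from 863, 834, 804 and 819 to 1160, 1530, 1355 and 1727 CPM (0.80 ± 0.44, 95% interval -0.09 to 1.68, adjusted p = 0.551). Cmpk2 went to 698, 1018, 621 and 1072 CPM (0.72 ± 0.35), Rsad2 to 2828, 3605, 2450 and 3729 CPM (0.68 ± 0.40) and Mx1 to 691, 1077, 602 and 946 CPM (0.61 ± 0.34, with 1 BaP library inside the DMSO range). Trim25 had the smallest adjusted p, 0.221, at 541, 563, 498 and 556 against 479, 481, 441 and 462 CPM. Isg15, Usp18, Bst2, Ifitm3 and Lgals3bp stayed within -0.04 and 0.16.

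The BaP result depended on how replicates were handled. When replicate numbers entered as a block nested in genotype, 1 gene, Mndal, was called for BaP in Ahr+/+ BMMs at 20 h (1.86% of tested genes). With the number as a block within genotype and time, an alternative added after the data were seen, 8 genes were called higher, namely Trim25, Mx1, Cmpk2, Rsad2, Herc6, Ifit2, Phf11d and Mndal (4.26% of tested genes). With only the 2 groups in the fit 1 gene was called, Ifit2 (0.195%). The main fit used 1 spread per gene over all 16 groups. Its SE and intervals for the ligands in Ahr+/+ BMMs thus also carry the spread of the Ahr-/- libraries. Replicate 3 of the DMSO group, which BaP and I3C share as their control, had the lowest set level of its group, 0.21 against 0.39 to 0.42 in the others, and the BaP libraries lay at 0.50, 0.69, 0.48 and 0.71.

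With I3C at 20 h in Ahr+/+ BMMs the median shift was 0.14 with 44 genes positive, against 51.3% of all tested genes. In 11 genes all 4 I3C libraries lay above all 4 DMSO libraries, against 1.92% of tested genes, and these were Ifih1, Ifit1, Ifit2, Ifit3, Ifit3b, Herc6, Parp12, Parp14, Dtx3l, Trim30a and Trim21. Ifit2 again had the largest shift, to 1111, 987, 1124 and 1240 CPM (0.43 ± 0.44, 95% interval -0.45 to 1.31). Mx1 was at 668, 677, 518 and 687 CPM (0.23 ± 0.34). The medians in Ahr-/- BMMs at 20 h were -0.01 with BaP and 0.02 with I3C, where 0 (0.413% of tested genes) and 2 genes (1.91%), Bst2 and Lgals3bp, had all ligand libraries above all DMSO libraries. Mx1 in Ahr-/- BMMs held 55.0, 59.1, 149 and 160 CPM with BaP and 64.5, 62.8, 220 and 152 CPM with I3C, beside 75.5, 52.9, 211 and 151 CPM with DMSO.

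The test of whether a ligand acts differently by genotype called none of the 50 genes, for BaP at 3 h (0.0138% of tested genes) or 20 h (0%) or for I3C at 3 h (0%) or 20 h (0%), and DESeq2 and limma called 0 in all 4. At an unadjusted p below 0.05 edgeR had 1 gene for BaP at 20 h and 0 in the others. The interval of this difference for Mx1 and BaP at 20 h ran from -0.15 to 1.79. BaP and I3C, given at different doses, were set against each other in Ahr+/+ BMMs, and no gene was called at 3 h (0.11%) or 20 h (0.282%), with 0 at an unadjusted p below 0.05 and 0 by DESeq2 and limma at both times. At 20 h BaP minus I3C was 0.39 for Rsad2, with a 95% interval from -0.41 to 1.19, and 0.38 for Mx1, from -0.30 to 1.06. These intervals leave room for a difference in either direction.

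The set moved together over the 16 groups, but some genes followed it less closely. The correlation of a gene's 16 group means (log2 CPM) with the median of the other 49 genes was lowest for Bst2 (r = 0.655), then Lgals3bp (0.797), Ifi44 (0.838), Trim25 (0.840), Oas1g (0.883), Ifitm3 (0.885), Zbp1 (0.895) and Oas3 (0.897). Apart from Trim25, whose induction was smaller at 20 h, all of these had a larger induction at 20 h than at 3 h. Oas3, for example, went from 105, 151, 91.3 and 103 to 462, 515, 389 and 422 CPM at 3 h, and from 44.8, 62.9, 29.4 and 45.0 to 689, 668, 592 and 588 CPM at 20 h. Bst2 and Trim25 also differed from each other, as Bst2 was the gene that rose most between 3 h and 20 h in Ahr+/+ BMMs.

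Of the 14487 other tested genes, those most like the set over the 16 groups included Ifi211 (r = 0.9989), Klf6 (0.998), Ifi209, Rabgef1, Tgtp2, Tdrd7, Ifi208, Trim34a and Ubr4 (0.9951). The points are group means that share libraries across comparisons, so the values are descriptions of likeness.

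Upstream of the set, 21 genes for interferons of types I, II and III were looked up, and Ifnb1 alone was abundant enough to be tested. It held 13.9, 22.3, 13.2 and 17.9 CPM in activated Ahr+/+ BMMs at 3 h and 6.67, 3.80, 17.6 and 16.7 CPM in Ahr-/- BMMs, where replicates 1 and 2 were again the lower ones. At 20 h it was near the limit of counting, with 11, 16, 47 and 48 counts in Ahr+/+ and 3, 3, 10 and 6 counts in Ahr-/- libraries, and was lower in Ahr-/- BMMs by 2.51 on the log2 scale (adjusted p = 0.00134). Unactivated libraries held 0 to 6 counts.

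Of 12 genes for the receptor and its signal, 11 rose with hk S.E. at 3 h in Ahr+/+ BMMs (24.2% of tested genes called higher). At 20 h 4 of the 12 were lower in Ahr-/- than in Ahr+/+ BMMs with DMSO, 8 with BaP and 6 with I3C (7.39%, 11.8% and 8.17% of tested genes called lower). The 4 with DMSO were Stat2 (-0.83 ± 0.15), the interferon regulatory factors Irf1 (-0.58 ± 0.12) and Irf5 (-0.35 ± 0.08), and the kinase Jak1 (-0.38 ± 0.08). Stat2 held 528, 563, 594 and 573 CPM in Ahr+/+ and 296, 230, 398 and 350 CPM in Ahr-/- BMMs. Irf7, which amplifies interferon production, had 2208, 2153, 2040 and 2112 against 1117, 977, 1410 and 1225 CPM, with no overlap and an adjusted p of 0.0154. The receptor chains Ifnar1 and Ifnar2 differed by -0.01 ± 0.07 and -0.18 ± 0.07 and were not called. At 3 h with DMSO 1 gene of the 12 was lower in Ahr-/- BMMs (1.61% of tested genes), Irf8, a factor of macrophage development (-0.73 ± 0.15, adjusted p = 0.00121).

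Among 13 genes that lead from bacterial products to interferon, 3 were lower in Ahr-/- BMMs at 20 h with DMSO: Tlr9, the endosomal receptor of bacterial DNA (-1.49 ± 0.19), and the adaptors Ticam1 (TRIF, -0.65 ± 0.14) and Ticam2 (TRAM, -0.46 ± 0.12). The count was also 3 with BaP and 3 with I3C. Of all tested genes, 7.39% were called lower with DMSO, 11.8% with BaP and 8.17% with I3C. At 3 h with DMSO 2 genes were higher in Ahr-/- BMMs, Ticam2 (0.56 ± 0.12) and Traf3 (0.45 ± 0.10), where 1.22% of tested genes were called higher. Of 10 negative regulators, with Socs1 and Tnfaip3 among them, 0 were lower and 0 higher in Ahr-/- BMMs at 20 h with DMSO, and 3 were lower and 1 higher with BaP and likewise with I3C. The shares of tested genes called lower are those just given, and 5.06% (DMSO), 11.5% (BaP) and 7.47% (I3C) were called higher. Of 11 NF-κB-driven cytokines and response genes, all rose with hk S.E. at 3 h and at 20 h in Ahr+/+ BMMs (24.2% and 29.9% of tested genes). At 20 h with DMSO 0 of them were lower and 2 higher in Ahr-/- BMMs, Il1b (1.41 ± 0.27) and Cxcl1 (1.19 ± 0.33), where 5.06% of tested genes were called higher. With BaP 1 was lower and 5 higher (11.5% of tested genes called higher), and with I3C 1 was lower and 2 higher (7.47%). Of 8 AhR pathway genes 5 were tested, and Ahrr alone was called for BaP in Ahr+/+ BMMs at 20 h (0.234% of tested genes), higher by 1.73 ± 0.18.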

How the data were processed

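RNA of 64 BMM libraries (TruSeq stranded mRNA, paired-end) was demultiplexed with bcl2fastq 2.19.0.316, aligned by the authors with HISAT2 2.1.0 to mm10 (GRCm38) and counted per gene with HTSeq 0.9.1. The deposited counts are whole reads per gene, not normalized, in 1 table per library, and 5 entries that name no gene were left out (3.41% to 5.92% of reads had no feature). The authors also deposited log2 values from a variance-stabilizing transformation for 14549 genes, used here only as an alternative.

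Genes passing filterByExpr (minimum count 10) were TMM-scaled and fitted in edgeR 4.0.16 (R 4.3.3) with 1 mean for each of 16 groups, 48 residual degrees of freedom and quasi-likelihood tests. Two-sided p-values were adjusted by Benjamini-Hochberg over all 14537 genes, with a gene called below 0.01. CPM are TMM-scaled, SE are those of the log2 fold change and intervals are 95%. Values are given library by library for Mx1, Ifit1, Isg15, Rsad2, Oasl1, Usp18, Ddx58, Zbp1, Parp14, Trim30a, Bst2 and Adar. The text also names, in each comparison, the 5 called members with the largest change and any called against the main direction, the 8 members least like the set, the 10 other genes most like it and genes of the pathway lists. Other members were named after their values were seen. Some genes that this rule would name are not reported here. The members and lists were chosen with earlier results of these data known.

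Groups followed the labels. The methods state 4 mice per genotype but no source ties a replicate number to a mouse. Deviations of same-numbered libraries correlated at -0.211 to 0.643 in Ahr-/- (30 of 32 pairs over 0.1) and 0.0347 to 0.319 in Ahr+/+ (26 of 40 pairs), so the replicate block stood as an alternative. In the main fit libraries were unpaired. Its p-values, SE and intervals rest on 1 spread per gene estimated over all 16 groups, Ahr+/+ and Ahr-/- together, not on the compared libraries alone. Alternatives were no low-count filter, RLE size factors, a replicate block, each library left out, the compared groups alone, the identifier series as a covariate, DESeq2 1.42.0, a threshold of 0.05 and limma 3.58.1 on the deposited log2 values. Promoters came from RefSeq on GRCm38.p6 and gene positions from GENCODE on GRCm38.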

Additional observations from a re-analysis of the deposited data

Results flagged for a closer look

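Groups of 4 libraries were examined for a library far from the other 3, which chance gives in about 1 in 20 groups, and 5 of 208 groups held one. Replicate 3 of Ahr+/+ BMMs with hk S.E. and DMSO at 20 h had the lowest set level of its group (0.21) and the lowest Zbp1 (353.9 CPM). Replicate 3 with I3C at 20 h in Ahr+/+ BMMs had the lowest Mx1 (517.5 CPM), and replicate 4 of that group the highest Ddx58 (531.6 CPM). In Ahr-/- BMMs with I3C at 3 h, replicate 2 had the lowest Mx1 (1449 CPM).

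The effect of hk S.E. at 20 h differed between the genotypes by the test of activation by genotype (edgeR, adjusted p below 0.01) in 12 of the 50 genes, each with a smaller activation in Ahr-/- BMMs. The differences on the log2 scale were -2.335 for Mx1, -2.214 for Rsad2, -2.138 for Cmpk2, -1.666 for Isg20, -1.549 for Mx2 and -1.317 for Isg15. They were -0.8322 for Ifi35, -0.7583 for Tor3a, -0.7103 for Trafd1, -0.683 for Daxx, -0.6201 for Sp100 and -0.4964 for Trim25. Genotype and identifier series cannot be told apart for the activated libraries at 20 h.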

How the results depend on the processing

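Counts of members called lower in Ahr-/- BMMs with hk S.E. at 20 h were 25 with DMSO, 36 with BaP and 30 with I3C (7.39%, 11.8% and 8.17% of tested genes). They were 7, 18 and 9 with the identifier series as a covariate (2.03%, 6.25% and 3.58%), and 13 with DMSO for the 2 groups alone (2.66%). That covariate rests on unactivated cells for the series of the Ahr-/- libraries, so it cannot part series from genotype in activated cells. Leaving out 1 library gave 16 to 25, 28 to 37 and 19 to 33. At 3 h, BaP went from 0 (2.18%) to 2 at a threshold of 0.05 and to 1 with DESeq2, and I3C from 0 (1.71%) to 1 at 0.05. Activation by genotype at 20 h went from 12 (2.33%) to 19 at 0.05 and 5 for these groups alone, and to 9 to 16 with 1 library out. Unactivated cells at 20 h against 3 h had 8 to 22 lower members in Ahr+/+ BMMs with 1 library out. In Ahr-/- BMMs this was 12 to 29, with 0 for the groups alone (0.425%) and 3 with the covariate (0.991%). The genotype difference between times went from 10 (3.52%) to 1 with the covariate (0.612%) and to 6 to 13 with 1 library out. Activation in Ahr-/- BMMs at 20 h had 48 to 49 higher members, and 41 to 42 fell from 3 h to 20 h of hk S.E. BaP in Ahr+/+ BMMs at 20 h went from 0 (0.234%) to 1 for the groups alone (0.195%). Shares of all tested genes are not given for the threshold of 0.05, DESeq2 or libraries left out. Nor are they given for activation by genotype with its groups alone. For those counts, a change in the set cannot be told apart from a change in calling over all genes. The causes were not tested.

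With the replicate block, activation by genotype at 20 h called 26 members (5.21% of tested genes) and the genotype difference between times 21 (7.27%). Unactivated cells had 39 lower members at 20 h in Ahr+/+ (6.2%) and 42 in Ahr-/- BMMs (7.57%). BaP in Ahr+/+ BMMs at 20 h had 1 (1.86%). With the block within genotype and time, added after the data were seen, activation by genotype called 30 and this BaP comparison 8 (4.26%). The share for the 30 is not given. No other count of members moved by over 1.5 times with the block. No paired analysis was possible because mice are nested in genotype for the genotype differences at 1 condition. No estimate larger than its SE in both settings changed sign.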
